A study of Drosophila melanogaster with 2 samples.

Results

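The 300 strongest nuclear peaks of the nuclear receptor Hnf4 in Drosophila melanogaster larvae were examined, chosen by the signal value, the authors' measure of enrichment for each peak. They came from the authors' optimal list of 5817 peaks in the dm6 build, of which 5803 lay off the mitochondrial chromosome. Of these, 5651 overlapped by at least 1 bp a region called in each replicate alone, and the first 300 by signal value were kept, 5.31% of the 5651. Another 152 nuclear peaks lacked such a region in replicate 1, in replicate 2 or in both, and 1 of them had a signal value high enough to enter the set. The peaks came from chromatin immunoprecipitation with sequencing of wandering larvae of the third instar, whole animals of both sexes pooled, from a transgenic line with green fluorescent protein (GFP) at the C terminus of Hnf4. The labels describe 2 biological replicates, which form 1 group, and chromatin sheared by sonication. They describe an antibody against GFP, while their antibody field names Hnf4. Whole larvae mix many tissues, so the cells a peak came from cannot be told apart. The lists hold no read counts, and the depth is unknown. The group has no contrasting condition, and the peaks were compared with the other 5351 both-replicate peaks, with the next 300 in rank, and with 23098 weak regions of the relaxed pooled list outside the optimal set. No test was made over peaks. Shares are given with exact 95% binomial intervals, which cover counting over peaks and not the spread between replicates.

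Nuclear receptors are transcription factors with a ligand-binding domain. Hnf4 binds DNA as a homodimer at direct repeats of a short sequence with a single base between the repeats, an arrangement called DR1. Its vertebrate relatives act in liver and gut metabolism. In flies Hnf4 is known for its action in fat body, midgut, Malpighian tubules and oenocytes, where it supports the use of stored fat and the handling of glucose.

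Among the 300 peaks 2 kinds of sequence differed from each other in position and in replicate values, and examples of each are shown here. In position they were less distinct in the next 300 in rank. The first kind is the DR1, found within 100 bp of the summit in 12 of the 300 peaks. The Hnf4 site CAAAGTCCA is a form of the longer part of this pattern, so the same bases can match both. In the following lines capitals mark the DR1, read along the strand that holds it. The DR1s of yip2, a thiolase of fatty acid beta-oxidation, and of Mtpalpha, a subunit of the mitochondrial trifunctional protein, are shown because they lay at genes of fatty acid use. For the same reason those of Ppcs, an enzyme of coenzyme A synthesis, and of the promoter of pdgy, an acyl-CoA synthetase, are shown. DR1s in an intron of pdgy are not shown. Those of Hsdl2, Pde11 and osa are further examples, not chosen for fatty acid use. The capitals of Mtpalpha cover a pair of DR1 matches that overlap.
yip2, chr2L:9915495-9915523, minus strand: attcaacaGGTCCAAAGTGCAaccggctg
yip2, chr2L:9915434-9915462, minus strand: caccaacgAGTCCAAAGTTCAgatctctc
pdgy, chrX:14953160-14953188, minus strand: tgagccagGGTCCAAAGTTCAacacaaaa
Mtpalpha, chr2L:9576327-9576355, plus strand: caagggagAGTACAAAGTTCAAAGTCCAg
Hsdl2, chr3R:27677574-27677602, minus strand: caagagaaAGTCCAAAGTGCAgattcaac
Pde11, chr2L:18572851-18572879, plus strand: agctaacgGGTGCAAAGTCCAttaccaag
Ppcs, chr3R:19147826-19147854, plus strand: aacctcggGGTTCAAAGTGCAggccaaaa
osa, chr3R:17704420-17704448, minus strand: ggaatcttAGGCCAAAGTTCAgtcttttg
The second kind is the word CTACGCC. Among 7-base words present at 15 or more of the 300, it had the highest ratio of members to other peaks. It was chosen after those values were seen. Capitals mark this word and runs of at least 4 C bases near it. Each site shown has such a run before the word, which 13 of the 18 peaks with the word had. Sites at bves, Gcn5, Lamtor3 and moody, with no such run in the bases read before the word, are not shown.
CG14100, chr3L:19590659-19590688, plus strand: tCCCCCgaatcagaaacttcaCTACGCCca
Ugalt, chrX:2703942-2703971, plus strand: ggatCCCCattttaaagcaagCTACGCCca
Tcs5, chr3L:5139546-5139575, plus strand: aaCCCCCtaaaaacttaccatCTACGCCca
CG9663, chr2L:3302211-3302240, plus strand: cattttctcaaaaCCCCCtttCTACGCCac
mRpL23, chr3L:2373527-2373556, minus strand: caatcttatgcgaCCCCCttgCTACGCCtg
CG3009, chrX:4667065-4667094, plus strand: ttgagCCCCCttaatttgggcCTACGCCCC
Coq3, chr2L:21158631-21158660, minus strand: aatCCCCCttaatgcacctggCTACGCCca
A single peak held both kinds. It ranked number 12, in an intron of CG32486, and its window is printed on the plus strand with the overlapping DR1 (on the minus strand) and CTACGCC in capitals.
CG32486 intron, chr3L:3060731-3060911: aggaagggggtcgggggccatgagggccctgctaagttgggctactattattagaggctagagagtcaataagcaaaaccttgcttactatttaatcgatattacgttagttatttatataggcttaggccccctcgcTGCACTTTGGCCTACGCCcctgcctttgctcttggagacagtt

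The signal values of the 300 peaks ran from 401 to 2177 with a median of 528. In the last 3 peaks inside the limit, nearest to Cyp4ac1, Tet and CG34417, they were 401.07, 401.07 and 400.86. In the next 3 peaks below it, nearest to CG44362, CG13898 and ex, they were 400.48, 398.67 and 396.79. The values inside and outside the limit thus differed little. In replicate 1 the values ran from 192 to 1219 with a median of 307, and in replicate 2 from 103 to 1081 with a median of 233. A replicate's value is that of its strongest region overlapping the peak, and 2 peaks, at ph-p and CG9663, share that region with a stronger neighbour whose interval overlaps theirs. Summits called in each replicate lay a median of 13 bp apart, against 31 bp in the other peaks, and 286 of the 300 were within 50 bp. The overlapping region was among the first 300 nuclear regions of replicate 1 for 265 of the peaks, of replicate 2 for 257, and of both for 222. Since signal chose the peaks, these values only describe them.

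**Figure D1:**
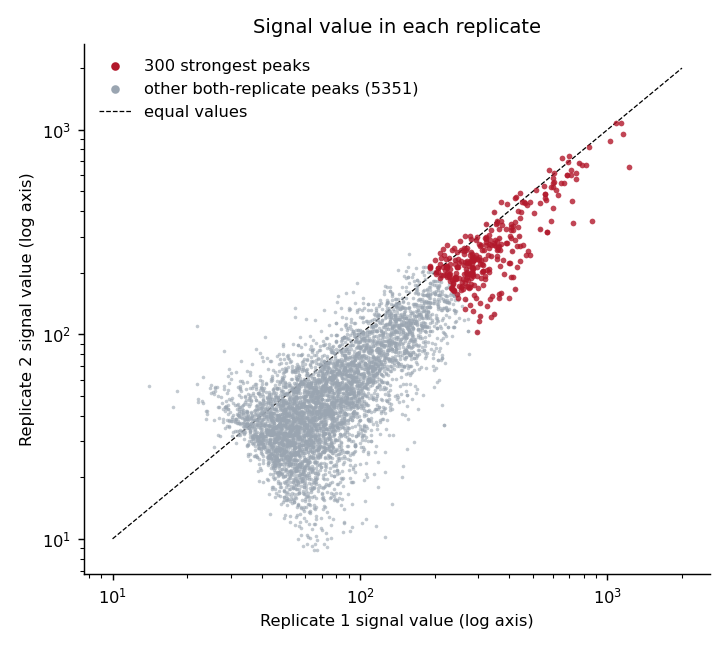
Signal values of both-replicate nuclear peaks in replicate 1 (x) and replicate 2 (y), both on log axes, for the 300 strongest peaks (red) and the other 5351 (grey). The 300 form the upper end of a single cloud, and 266 of them lie below the dashed line of equal values, with the higher value in replicate 1. This is 88.7% of the 300, close to the 86.0% of the other peaks.

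The ratio of replicate 1 to replicate 2 ran from 0.820 to 2.89 with a median of 1.24, and peaks with a DR1 were concentrated at its upper end. Of the 12 peaks with a DR1, 10 were among the 75 peaks with the highest ratios (1.47 to 2.89). The median ratio was 2.09 over the 12 peaks with a DR1 and 1.24 over the other 288. The exceptions among the 12 were the peaks of the CG32486 intron, at 658 in replicate 1 and 729 in replicate 2, and of an osa intron, at 712 and 632. The Hnf4 site was found at 6 peaks, with ratios from 1.86 to 2.53. Among the next 300 in rank, which are not members, the 6 with a DR1 had a median ratio of 2.38 against 1.36 for the other 294. With 1 value per replicate and unknown depth, the ratio compares these replicates only, and what differed between them was not tested.

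Among the 300, genes of fatty acid oxidation showed the same upper ratios, and mitochondrial ribosomal protein genes did not. The peak of yip2 had 862 in replicate 1 and 360 in replicate 2. That of Acadvl, a very-long-chain acyl-CoA dehydrogenase, had 432 and 214, and that of Mtpalpha 423 and 167. The peak of Mcad, the medium-chain acyl-CoA dehydrogenase, had 349 and 125, where the promoter window also takes in Ank2, and that of Mtpbeta, the partner subunit of Mtpalpha, 287 and 130. All 5 peaks thus had ratios from 2.02 to 2.79, above the median of the 300. They overlap the peaks described by sequence: yip2 and Mtpalpha held a DR1 and Mtpbeta the Hnf4 site. Only Acadvl and Mcad held neither. The 4 peaks at mitochondrial ribosomal protein genes, mRpS23, mRpS10, mRpL41 and mRpL23, were among the strongest, with signal values from 932 to 1464, and had ratios from 0.913 to 1.17. Among the next 300 in rank the 6 peaks at promoters of fatty acid oxidation genes had a median ratio of 2.35, against 1.36 in the other 294. The 3 at mitochondrial ribosomal protein genes had 1.72, against 1.37 in the other 297, so there they too were higher. The median ratio was 1.24 in the 300, 1.37 in the next 300 and 1.51 in all other peaks. Signal differed between the 2 gene groups and was not held equal. The 5 fatty acid oxidation peaks were also wide, with a median of 708 bp against 372 bp in the other 295.

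**Figure D2:**
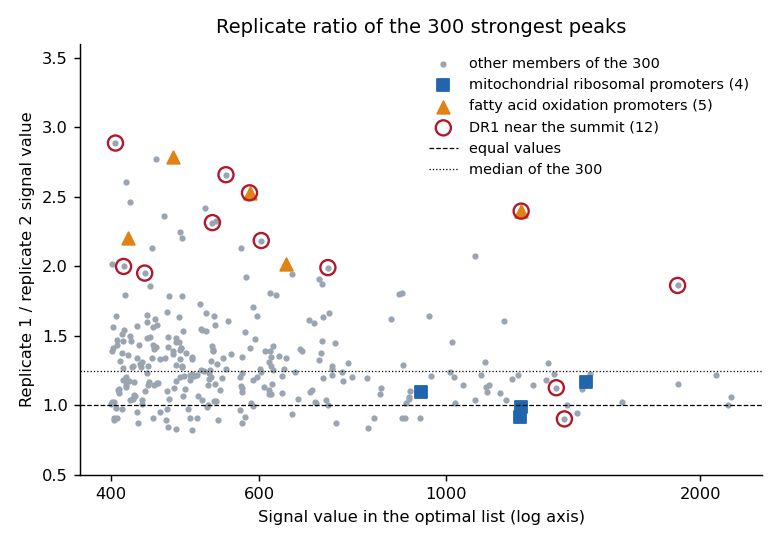
Ratio of replicate 1 to replicate 2 signal value (y) against signal value in the optimal list (x, log axis) for the 300 strongest peaks, with peaks at promoters of mitochondrial ribosomal protein genes, peaks at promoters of fatty acid oxidation genes and peaks with a DR1 marked. The dashed line is a ratio of 1 and the dotted line the median of 1.24, and 10 of the 12 DR1 peaks lie above the dotted line.

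The 5 highest ratios were at Ppcs (297 in replicate 1 and 103 in replicate 2), Mcad, cbt (337 and 122), l(2)k09913 (400 and 150) and t-cup (304 and 117). The cbt peak here is the weaker of 2 at this gene, which encodes a zinc finger transcription factor. The 5 lowest were at Hs2st (224 and 273), GCS2beta, Atat (370 and 441), CG10602 and CG8306, with ratios from 0.820 to 0.873. Of all 300 peaks 21 had a ratio of 2 or more. Besides genes named above, these included Gapdh2, a glycolytic dehydrogenase (725 and 349), GstT1, a glutathione transferase (414 and 190), Hsdl2 (363 and 157), and an exon of Lsd-2, a perilipin of lipid droplets (364 and 151).

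Summits of the 300 peaks lay mostly at promoters, a short way upstream of the transcription start site (TSS). A promoter summit, at most 1000 bp from a protein-coding TSS, was found for 196 of the 300 peaks, 65.3% (59.7 to 70.7), against 52.5% (51.1 to 53.8) of the other both-replicate peaks and 27.2% of weak regions. Introns held 70 peaks, 23.3% (18.7 to 28.5), against 31.1% of the other peaks. Intergenic positions held 31, or 10.3%, against 15.4%, and exons 3, or 1.00%, against 1.08%. The next 300 in rank were close to the strongest 300, with 63.7% at promoters, 24.7% in introns and 10.3% intergenic. The summit was over 5000 bp from any TSS in 14% of the 300 peaks and 21.9% of the others.

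Divergent promoters, where TSSs of both strands lie within 1000 bp of the summit and the genes point away from each other, held 71 peaks, 23.7% (19.0 to 28.9), against 15% (14 to 16) of the other peaks and 2.99% of weak regions. The next 300 had 25%. Examples are Ugalt, a UDP-galactose transporter, with eIF2Bbeta, a subunit of the exchange factor for eIF2, at 1883, and Tcs5 with CHMP2B, a membrane remodelling protein, at 1427. The 4 mitochondrial ribosomal promoters were each shared with a neighbouring gene within the window (CenG1A, Art3, CG8079 and CG9004), and such a peak cannot be assigned to either gene. At the 196 promoters the median summit lay 112 bp upstream of the nearest TSS, against 64 bp at the 2807 promoters of the other peaks and 23 bp in weak regions. In 150 of the 196, or 76.5%, it was upstream, against 68.2%. A window of 50 to 200 bp upstream, chosen after these values were seen, held 46.4% (39.3 to 53.7) of the 196 summits and 30.3% (28.6 to 32.1) of the 2807. In the next 300 the median was 102 bp upstream and the share 39.3%.

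**Figure D3:**
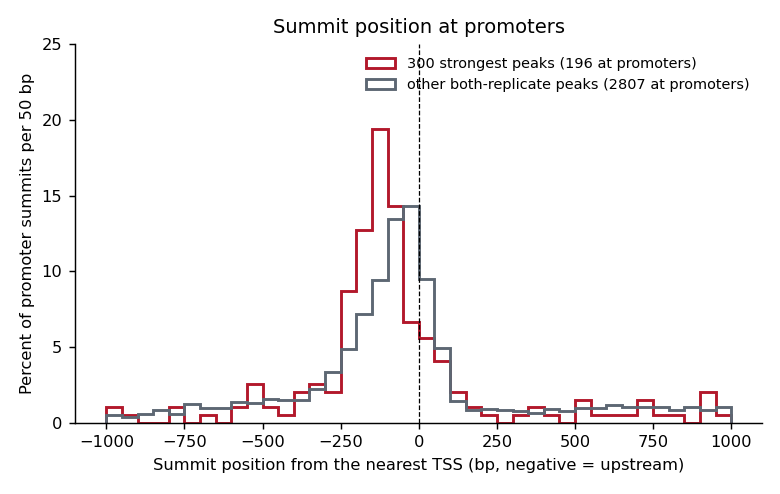
Position of promoter summits from the nearest protein-coding TSS (x, bp, negative is upstream) as a percentage of promoter summits per 50 bp (y), for the 196 promoter peaks among the 300 (red) and the 2807 among the other peaks (grey). The red curve peaks farther upstream, with medians of -112 and -64 bp.

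The DR1 was present at 12 of the 300 peaks, 4.0% (2.08 to 6.88), against 29 of the other 5351, 0.542% (0.363 to 0.777), and 0.208% of weak regions. In the next 300 in rank it was at 2.00% (0.737 to 4.30), an interval that overlaps that of the 300. Its share was 4.08% at the promoters and 3.85% elsewhere among the 300. That stronger peaks hold it more often was known from earlier results of these data. Of its 16 matches 13 lay within 50 bp of the summit, against 4 of 6 in the next 300 and 20 of 29 in all other peaks. Read along the DR1, 0 of the 16 lay 40 to 100 bp downstream of the summit and 6 at that distance upstream. In the next 300 the counts were 4 and 1 of 6 matches, and in all other peaks 11 and 4 of 29. The 16 matches lay in only 12 peaks, and the range belonged to no planned result, so these counts only describe the peaks. The Hnf4 site CAAAGTCCA was present at 2.00% (0.737 to 4.30) of the 300, 2.33% of the next 300 and 1.01% of all other peaks, while the same letters backwards, ACCTGAAAC, were at 0 of the 300 (interval 0 to 1.22%) and at 0.150% of the others. The variant CAAAGTTCA, chosen after its values were seen, was at 3.00% of the 300, 0.667% of the next 300 and 0.710% of all other peaks. Either the DR1 or the Hnf4 site was at 15 of the 300. When peaks were ranked by replicate 2 alone, the DR1 share of the first 300 was 2.00%, and when ranked by replicate 1 alone it was 4.67%.

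The strongest of the 12 lay in an intron of dnr1, at 1880, with 1219 in replicate 1 and 655 in replicate 2 and a pair of DR1s. The next were the CG32486 intron at 1380, the intron of osa, a subunit of the Brahma chromatin remodelling complex, at 1350, and yip2 at 1227. The remaining 8 had values from 405 to 724, which is the range of most of the 300. They were the promoter and an intron of pdgy, GstT1, Mtpalpha, l(2)k09913, Hsdl2, Pde11 (a cyclic nucleotide phosphodiesterase) and Ppcs. Peaks with the Hnf4 site and no DR1 lay in an intron of zip, a nonmuscle myosin heavy chain, at 571, and at the promoters of CG9737, at 446, and Mtpbeta, at 419.

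The leading word CTACGCC was the first by ratio of 767 words of 7 bases present at 15 or more of the 300, out of 8192 words with both strands taken as one. It was present at 18 peaks, 6.00% (3.59 to 9.32), against 52 of the other 5351, 0.972% (0.727 to 1.27), 2.67% of the next 300 in rank and 0.671% of weak regions. Of the 18 peaks 6 were among the first 12 and 13 among the first 100. Their median signal value was 866, against 524 in the other 282. Of the 18, 17 were at promoters, 10 of them divergent. Since the word was picked for this ratio, these shares carry no independent support. It is given as letters only, with no factor assigned.

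The word lay mostly on one side of the summit. Read along the word, 16 of its 19 matches lay 40 to 100 bp downstream of the summit and none at the same distance upstream, with a median of 64 bp. In the next 300 in rank 6 of 8 matches lay 40 to 100 bp downstream, and in all other peaks 28 of 53 did, with 9 at that distance upstream. A run of at least 4 C bases stood 4 to 24 bases before the word on the same strand at 13 of the 18 peaks, against 4 of 8 in the next 300, 16 of 52 in all other peaks and 22 of 155 weak regions. The range of 40 to 100 bp and the C run belonged to no planned result, so these counts only describe the peaks. Genes at these promoters included CG14100 (2159), Ugalt (1883), CG1888 (1615), Tcs5 (1427), mRpL23 (932), Gcn5, a histone acetyltransferase (624), Coq3, an enzyme of coenzyme Q synthesis (482), and Lamtor3, a part of the Ragulator complex (475). The replicate ratio had a median of 1.12 over the 18 peaks with the word, against 1.26 in the other 282. In the next 300 in rank the medians were 1.36 with the word and 1.37 without it. In all other peaks they were 1.45 and 1.51, so outside the 300 the ratio differed little with the word. The words next in order included GGGCGTA, whose reverse complement shares bases with the leading word, and the C-rich word ACCCCCT, at 5.0% of the 300, 2.33% of the next 300 and 1.44% of all other peaks.

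A further word, CACTGTA, was number 13 by ratio and the most widespread of the words described here, at 39 peaks, 13.0% (9.41 to 17.3), against 5.92% (5.31 to 6.59) of the other peaks, 6.33% of the next 300 in rank and 2.96% of weak regions. Its share was 14.4% outside promoters and 12.2% at them among the 300, and 33 of its 44 matches lay 40 to 100 bp downstream of the summit, against 20 of 23 in the next 300 and 179 of 337 in all other peaks. No peak held both words. With the words at 18 and 39 of the 300, few shared peaks would arise even if they were unrelated, and this was not tested. The peaks with CACTGTA included CenG1A with mRpS23 (1464), Lk6 (1311), larp, an RNA-binding protein of translation (1195), an intron of norpA, a phospholipase C (1024), and crb, an apical polarity protein (888).

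**Figure D4:**
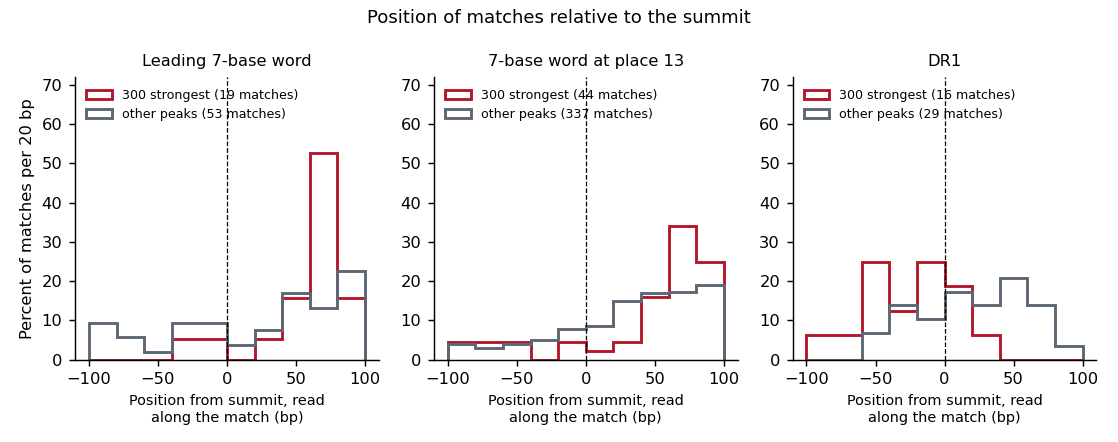
Position of the centre of each match from the summit (x, bp, read along the match) as a percentage of matches per 20 bp (y), for the leading 7-base word, the word at place 13 and the DR1, in the 300 strongest peaks (red) and the other peaks (grey). Both words lie mainly 40 to 100 bp to one side in the 300, with medians of 64 and 64.5 bp, while 13 of the 16 DR1 matches lie within 50 bp of the summit.

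Sequences of general promoters were not more frequent in the 300. The M1BP site GGTCACAC, found at many promoters of housekeeping genes, was at 1 of the 300, the RpL7 promoter, 0.333% (0.00844 to 1.84), against 2.19% (1.81 to 2.61) of the other peaks, although promoters made up more of the 300. In the next 300 in rank it was at 0 (interval 0 to 1.22%), so it was scarce there too. At promoters alone it was at 0.510% and 3.78%. The DRE, TATCGATA, was at 10 peaks, 3.33% (1.61 to 6.04), against 2.67% of the next 300 and 3.89% of all other peaks, all 10 at promoters, among them eIF6 (903), Atat (807) and Jwa (633). GAGAGAG was at 5.67%, against 5.33% of the next 300 and 6.11% of all other peaks, first at CG31668 (1322), Lk6, LPCAT (1021) and an intron of Tlk (1011). The remaining 11 motifs searched as letters had shares that overlapped those of the other peaks within their intervals. They were AGATAAG for GATA factors, the E-box CACGTG, the estrogen-related receptor site TCAAGGTCA, the forkhead site GTAAACA, the CREB site TGACGTCA, the C/EBP site TTGCGCAA, the AP-1 site TGACTCA, the Zelda site CAGGTAG, the STAT site TTCNNNGAA, the TATA box TATAAA and the repeat CACACAC. The ecdysone element was found at none of the 5651 peaks. All were searched on both strands. Most of the 300 peaks held none of the 3 words described here, the DR1, the Hnf4 site, the DRE or GAGAGAG.

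**Figure D5:**
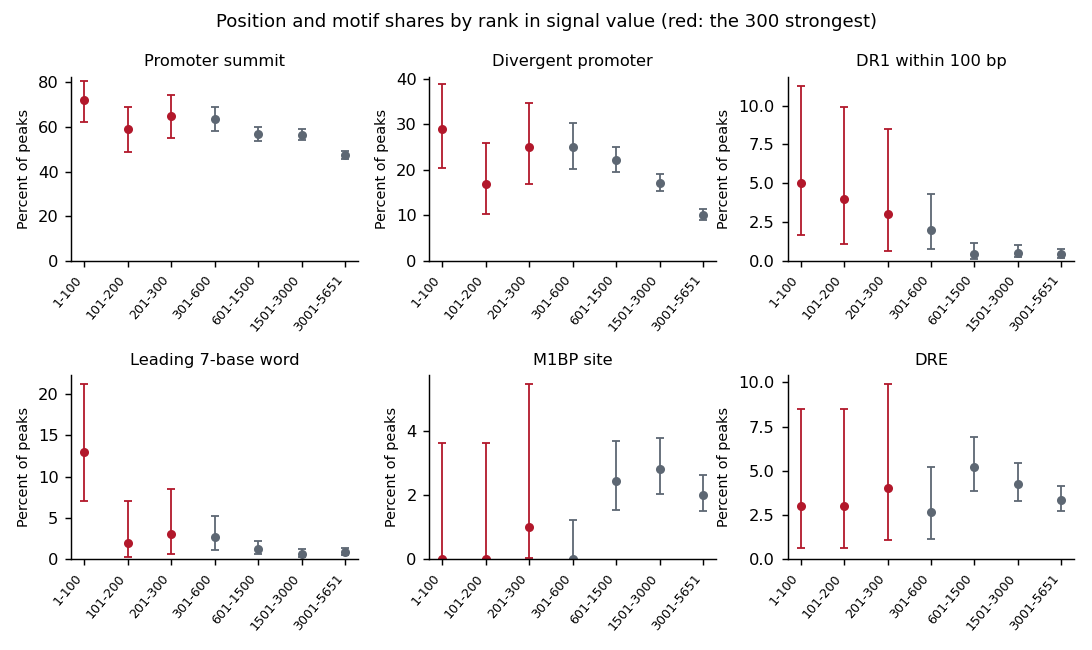
Share of peaks (y, percent, points with exact 95% binomial intervals) with a promoter summit, a divergent promoter, a DR1, the leading 7-base word, an M1BP site or a DRE, by rank in signal value (x). The 300 strongest are in red: the leading word falls off within them, at 13 of the first 100 and 2 of the next 100, whereas promoter and divergent shares are about as high in the 300 that follow.

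Of 13945 protein-coding genes, 272 had one of the 300 summits at a promoter, 1.95%, and 400, or 2.87%, had one at the promoter, nearest to the gene or within it. Any both-replicate peak at the promoter was found for 3073 genes, 22.0%. Fatty acid oxidation genes had 5 of 24 among the 272, and 17 of 24 among the 3073. Insulin, TOR and nutrient signalling genes had 6 of 31. These were Lk6, a kinase that acts on translation initiation factor 4E, the TORC1-responsive factor REPTOR (713), the stress sensor Sesn (674), the phosphatidylinositol 3-kinase adaptor Pi3K21B (548), cbt (453) and the AMP-activated kinase subunit alc (409). The window of Sesn also takes in CG46429. That of alc takes in CG44286 and CG8788, and CG8788 is the nearest gene. The shares were 20.8% for fatty acid oxidation genes and 19.4% for these signalling genes. In all, 14 of the 26 lists stood above the 1.95% over all genes, 1 was below it with 1 gene, and 11 had no gene, and the lists were chosen with earlier results known. For fatty acid oxidation earlier results of these data already showed the same direction.

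The other lists had from 0 to 4 genes each. Mitochondrial ribosomal proteins had 4 of 73 (5.48%), mitochondrial gene expression and import 2 of 22 (9.09%, the RNA-processing enzyme PNPase at 1342 and the protease Lon at 619), and cytosolic ribosomal proteins 3 of 93 (3.23%, RpL34b, RpL7 and RpL32, from 425 to 499), although 57 of the 93 had some both-replicate promoter peak. Promoter windows of several list genes also take in another gene, among them these 3 cytosolic ribosomal genes, PNPase, Lon and Chro. Glycolysis had 1 of 16 (6.25%), Gapdh2 at 1082. The tricarboxylic acid cycle (19 genes), aminoacyl-tRNA synthetases (35), the proteasome (48) and histones had 0. In lists of this size the share of 1.95% over all genes amounts to few genes or none. Nuclear receptors and the ecdysone response had 0 of 28 at promoters, but introns of the ecdysone-induced receptor genes Eip75B (960) and Eip78C (732) and of Hr4 (528) each held a peak. Polycomb and trithorax genes had ph-p (1266) at the promoter and osa and Trl, the GAGA factor gene (503), in introns. Lipid storage and synthesis had the promoter of Lpin, a phosphatidate phosphatase (486), and the exon of Lsd-2 (517). Smaller counts stood at V-ATPase (Vha100-2 at 522 and Vha36-1 at 500.1, 2 of 33 genes), translation initiation (eIF2Bbeta and eIF6, 2 of 44) and the respiratory chain with ATP synthase (Cyt-c-p, cytochrome c, at 483, 1 of 84). Insulator and core promoter factors had 1 of 19, Chro (1157), heat shock proteins 1 of 25, Hsp27 (1016), and the circadian clock 1 of 10, sgg (434), with vri (497) in an intron. Autophagy had 0 of 20 at promoters. The marker lists of fat body, midgut, oenocyte, Malpighian tubule and muscle, with 2 to 6 genes each, had none of their genes at, nearest to or around one of the 300 summits, and the neuron list had 1 of 3, elav (415).

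Several of the strongest peaks lay outside promoters as set by the 1000 bp window, some only just past it. The first of the 300 had 1137 in replicate 1 and 1074 in replicate 2. It lay in an intron of ush, 1413 bp upstream of the nearest TSS, that of cbt. The peak in an intron of CG11050, 1032 bp from its TSS, had 1152 in replicate 1 and 948 in replicate 2. The intergenic peak nearest to CG13323 had 821 and 669. An intergenic peak nearest to CG31668 had 749 and 576, and one nearest to eEF1gamma, a translation elongation factor subunit, had 670 and 549. Only protein-coding genes define these classes, and a long non-coding RNA gene lay within 500 bp of the eEF1gamma peak. The peak in an intron of Zw, the glucose-6-phosphate dehydrogenase of the pentose phosphate pathway, had 605 and 526. It lay 1110 bp upstream of the nearest TSS. A promoter window of 2000 bp takes in this peak and those at cbt and CG11050. In these 6 peaks the replicate 1 value was the higher, as in 88.7% of the 300, by less than in the fatty acid oxidation peaks. The intron peaks of dnr1, CG32486 and osa, described above, were also among the strongest outside promoters. In that of CG32486 replicate 2 was the higher, with 658 in replicate 1 and 729 in replicate 2.

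Some genes held several of the 300. The acyl-CoA synthetase gene pdgy had 3, at 724 and 421 near its promoters and 414 in an intron, with ratios of 1.99, 2.47 and 2.00. The peaks at 724 and 414 held DR1s. Act5C, Btk, CG4004, CG9663, Hr4, aru, cbt, egh, for and ph-p were nearest to 2 each. In all 18 pairs of neighbouring members lay within 5000 bp of each other, against 12 pairs among the next 300 in rank. Counting every both-replicate peak, 29.0% of the 300 had no other peak within 5000 bp, against 29.2% of the other peaks. The 5 peaks farthest from a TSS were nearest to CG42238 (40527 bp, signal value 590), CG13482 (25271 bp, in an intron of fz), Tollo (25165 bp), SrpRbeta (17521 bp) and gpp (17251 bp).

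Long non-coding or antisense RNA genes lay within 500 bp of 33 of the 300 summits, 11%, against 9.77% of the other peaks, and transfer RNA genes near 2, 0.667% against 0.579%. Annotated transposable elements lay near 1, 0.333% against 1.94%. By chromosome arm, 69 of the 300 were on 2L, 54 on 2R, 54 on 3L, 63 on 3R and 60 on X. Chromosome 4 held 0 of the 300 (interval 0 to 1.22%), against 37 of the other peaks, 0.691%.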

How the data were processed

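The authors deposited peak lists in narrowPeak format with a signal value per peak, their measure of enrichment. Per the deposited file descriptions, the relaxed lists are input to the irreproducible discovery rate, the optimal list came from both replicates and their pool, and both replicates had the same control. For the aligner and peak caller, names and versions were not given in the sources used here. Signal values were used as deposited, to rank and describe. Summits came from the deposited offsets. Positions are 1-based in dm6, with sequence from RefSeq Release 6 and genes from Ensembl release 115. Each peak was assigned the gene with the nearest protein-coding TSS. A summit within 1000 bp of one was a promoter, otherwise exon, intron or intergenic. Motifs were matched on both strands within 100 bp of a summit, and all shares are over windows of that same length. The members and lists were chosen with earlier results of these data known, and the 7-base words and the variant CAAAGTTCA after their values were seen. Of the 26 gene lists, 21 symbols were not matched and were left out. Named were the strongest peaks, those at the limit, those with a DR1 or Hnf4 site, the first with a DRE or GAGAGAG, genes with several peaks, extremes of distance and replicate ratio, and list genes, some left out for length. The labels call the replicates biological. The scripts were tested on simulated data. Intervals came from scipy 1.17.1 and tables from pandas 2.3.3 and numpy 2.4.6 under Python 3.11.15. Figures were drawn with matplotlib 3.10.9.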

Additional observations from a re-analysis of the deposited data

How the results depend on the processing

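A share was taken as moved when it left the exact interval of the share given, and the gene count when it changed by over 1.5 times either way. Of 82 values recomputed under other settings, 15 moved and 67 did not. Genes with a promoter peak numbered 181 with 200 peaks kept and 458 with 500. Ranking by 1 replicate alone kept 254 of the 300 peaks either way. It gave a DR1 share from 2.00% (without replicate 1) to 4.67% (without replicate 2) and an Hnf4 site share from 0.667% (without replicate 1) to 2.33% (without replicate 2). With a promoter window of 500 bp the promoter share was 55.7%, the divergent share 18.7% and the intron share 31.7%, and with 2000 bp they were 74.0%, 29.0% and 16.7%. With TSSs of all annotated transcripts the promoter share was 71.3% and the intergenic share 6.33%. A motif window of 50 bp gave a DRE share of 1.33% and a CTACGCC share of 1.67%, and 200 bp gave a CTACGCC share of 9.67%. The CTACGCC window settings were chosen after seeing the data. Wider or narrower windows hold more or less sequence, and the cause of the other shifts was not tested. No paired analysis was possible because there is 1 group. With 12 DR1 peaks and 2 replicates of unknown depth, shares of single motifs are imprecise.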
